A study of Mus musculus with 14 samples.

Results

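The genes described here are 41 factors that shorten, decap and degrade mRNA, taken by symbol as a list of subunits and cofactors from the 54446 genes measured in mouse liver. They comprised 15 deadenylation factors, 6 decapping factors, 2 exonucleases that degrade RNA from its 5′ end, 11 exosome subunits and 7 factors of nonsense-mediated decay. All 41 were found, and all 41 reached the minimum value for testing. Their expression was compared between 6 control samples with a floxed Mettl3 gene and 8 knockout samples with floxed Mettl3 and Alb-Cre, all from C57BL/6 mice of 5 weeks of age. The labels number the samples without saying that each is a separate mouse, and a sample is called a liver below. Alb-Cre is a recombinase driven by the albumin promoter, which is active in hepatocytes, and whole liver also holds other cell types. Controls had the floxed alleles without the recombinase. Total RNA came from flash-frozen whole liver, and the comparison asked how liver RNA differs when Mettl3 is deleted in hepatocytes.

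Turnover of most mRNAs begins with removal of the poly(A) tail by the PAN2-PAN3 and CCR4-NOT complexes. The message is then either decapped by DCP2 and degraded from its 5′ end by XRN1, or degraded from its 3′ end by the exosome, a ring of non-catalytic subunits with associated nucleases. Nonsense-mediated decay directs mRNAs with a premature stop codon into the same machinery. METTL3 is the methyltransferase that places N6-methyladenosine (m6A) on mRNA, a mark whose reader proteins recruit the CCR4-NOT complex to methylated messages.

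Because m6A is placed within a short consensus of which GGACT is the best-known form, the sequence surrounding a match is shown for 5 of the factors on which the results turn. In each gene it is the match nearest the stop codon of the longest coding transcript, written 5′ to 3′ on the transcript strand with the pentamer in capitals and read from GRCm38 with GENCODE M21. The first is in the coding sequence of the exosome subunit Exosc4 at chr15:76329699-76329723 (+), in exon 3 of 3, with its pentamer starting 4 nt before the stop codon. The second lies in the coding sequence of the exosome subunit Exosc5 at chr7:25665503-25665527 (+), in exon 4 of 7. The third is in the 3′ UTR of the deadenylase Cnot6 at chr11:49674979-49675003 (-), in exon 12 of 12. The others lie in the coding sequences of the related deadenylases Cnot7, at chr8:40500881-40500905 (-) in exon 3 of 6, and Cnot8, at chr11:58117521-58117545 (+) in exon 7 of 7.
Exosc4: tctcactgggGGACTgagtggcaac
Exosc5: cctgtgccctGGACTctgatggaaa
Cnot6: tgctagacagGGACTggtgtgttta
Cnot7: tgtatgctcaGGACTctatagagct
Cnot8: atgaggatgtGGACTgtgcccagga

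Over the 41 factors the median density was 0.82 GGACT matches per kb of transcript, against 1.03 over the 16146 protein-coding genes tested. Exosc4 had the highest density of the 41 at 2.78 per kb, from 5 matches, and Cnot6 the next at 1.92 per kb, from 11 matches. Pan2, which was called lower in the knockout, followed at 1.80 per kb, from 8 matches. Exosc10, which was not called, came after it at 1.79 per kb, from 5 matches. Exosc5 had 1.79, Cnot7 0.67 and Cnot8 0.48 matches per kb, while Cnot3 and Upf3a had none. A match within 200 nt of the stop codon was present in 9 of the 41 transcripts (22.0%), against 39.3% of the protein-coding genes tested. These are counts of letters on the transcript strand of 1 transcript per gene, and m6A itself was not measured in these samples.

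Each library gave 1 value per gene, a normalised estimated count, at a depth of 11.1 to 33.8 M (megareads) estimated reads. Mettl3 had values of 199 to 263 in controls and 76.9 to 122 in knockouts, so the groups did not overlap (log2 change -1.17, limma adjusted p = 1.32e-05). The labels gave no sex, but replicates 1 to 4 of both groups carried Y-linked transcripts (Y-positive libraries), whereas control replicates 5 and 6 and knockout replicates 5 to 8 carried high Xist (Xist-high libraries). This class cannot be told apart from depth, since the Y-positive libraries held 24.3 to 33.8 M and the Xist-high ones 11.1 to 19.3 M estimated reads. Knockout replicates 3, 6 and 7 stood apart from the other libraries on the first principal component. Summed values were lower in knockouts (16.8 to 20.7 M) than in controls (21.5 to 27.6 M), and the scaling therefore matters: the median log2 change of all 23554 genes tested was 0.05 as deposited and 0.38 once libraries were scaled to equal sums outside ribosomal RNA. Of 6 markers each, 4 hepatocyte and 3 endothelial markers were called lower and 3 cholangiocyte markers higher as deposited. Of all genes, 11.5% were called higher and 11% lower. No Kupffer, stellate, lymphocyte, neutrophil or erythroid marker was called as deposited, with 2 neutrophil and 4 erythroid markers tested. Under equal sums the hepatocyte, endothelial and cholangiocyte counts were 2, 0 and 3, and 1 stellate and 1 lymphocyte marker were called higher. The shares of all genes were then 33.4% higher and 3.67% lower. Without knockout replicates 3, 6 and 7 the 3 counts were 4, 1 and 2, and 2 stellate markers were called lower. Of all 23554 genes, 2165 were then called higher and 2176 lower. The summed cholangiocyte markers ran from 697 to 1247 in controls and from 1073 to 3527 in knockouts, and the endothelial markers from 3809 to 4719 and from 2531 to 4307. No hepatocyte, endothelial or cholangiocyte marker was at 0 in all libraries, and the part of cell types in the results below was not tested.

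Among the 41 decay factors, 2 were higher and 6 lower in the knockout at a limma adjusted p of at most 0.05, and the remaining 33 did not pass. That is 19.5% of the factors, against 22.4% of all 23554 genes tested, of which 11.5% were called higher and 11% lower. The higher genes were Exosc4 and Cnot6. The lower genes were Exosc5, Cnot3, Cnot7, Pan2, Upf2 and Upf3b. The median log2 change of the 41 was -0.06, against 0.05 over all genes tested. As deposited, 26 of them (63.4%) were below 0, against 45.3% of all genes tested. With libraries scaled to equal sums, 13 factors were called higher and 0 lower, against 33.4% and 3.67% of all genes (37.1% in either direction). Their median was then 0.28, against 0.38 over all genes, and 2 of them (4.88%) were below 0, against 19.8% of all genes. The split of calls over all genes moved from 51.1% higher to 90.1% higher. Under equal sums Exosc5 and Cnot3 stayed below 0 without passing (log2 -0.14 and -0.06), and Cnot7, Pan2, Upf2 and Upf3b turned to slightly above 0 (0.00 to 0.08). An absolute log2 change of at least 0.5 was seen in 2 factors as deposited, Exosc4 and Dcp2, and in 6 under equal sums. In bulk liver, a lower value cannot be separated into fewer cells of a type and less RNA per cell.

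**Figure D1:**
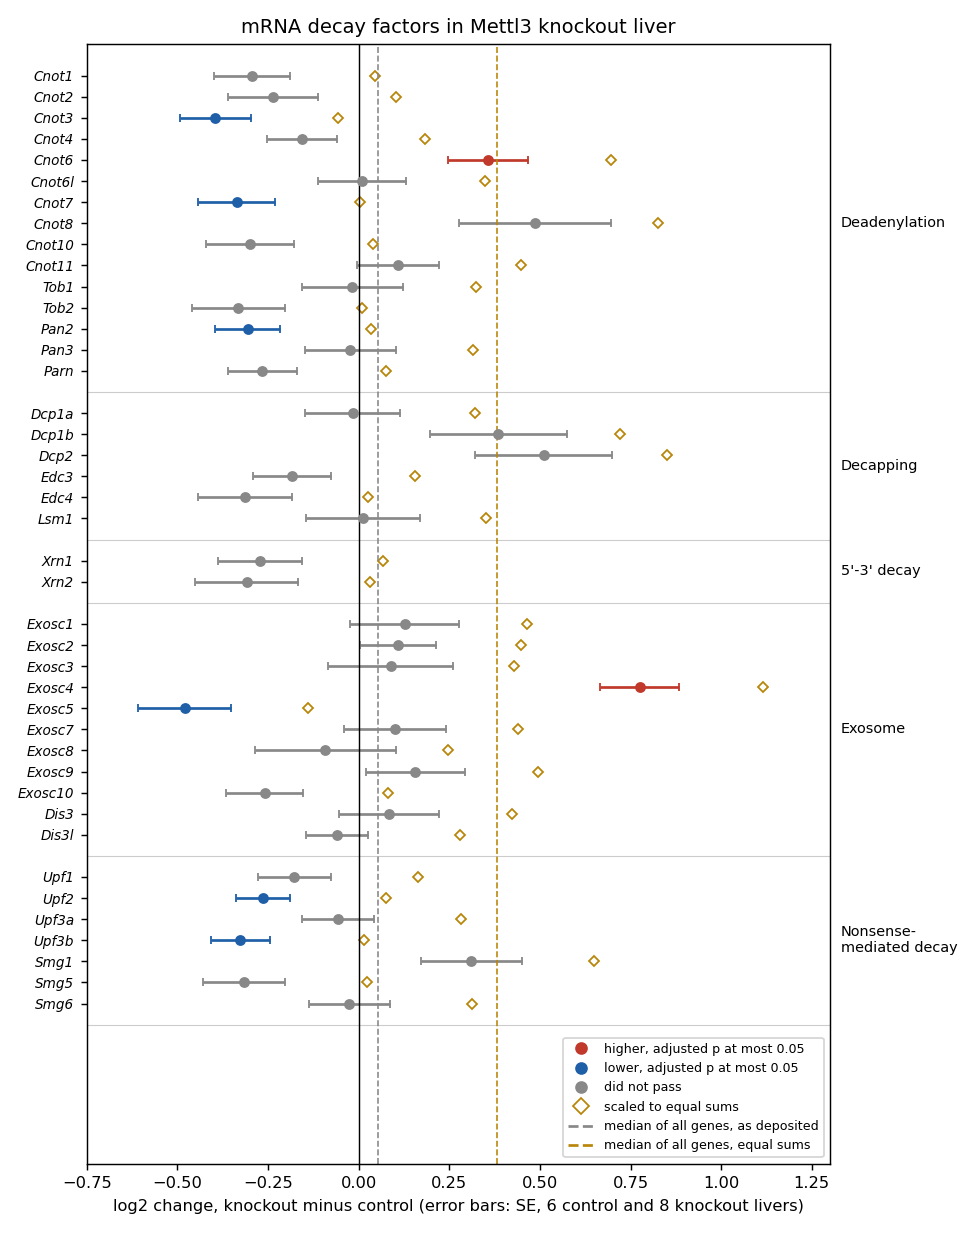
Log2 change (knockout minus control, x axis) of each of the 41 decay factors, grouped by role, with bars for the SE over 6 control and 8 knockout livers. Filled points are values as deposited, coloured where the limma adjusted p was at most 0.05, open diamonds are the same changes after scaling to equal sums, and dashed lines mark the median of all genes under each scaling (0.05 and 0.38). Exosc4 lies furthest to the right under both scalings and Exosc5 furthest to the left.

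The decay factors had a lower median coefficient of variation between livers than all genes tested, a set not matched to them by level. Their median was 12.2% in controls and 14.8% in knockouts, against 21.8% and 27.9% over all genes tested. Genes that reached 10 in as few as 6 libraries were tested, whereas the lowest control mean among the factors was 79.3 (Dcp1b). The part of expression level in this difference was not tested. The ranges of control and knockout libraries were separate for 2 of the 41 factors (4.88%), Exosc4 and Pan2, against 8.16% of all genes tested. Per kb of longest coding transcript, Tob1 had the highest control level at 1236, followed by Cnot8 at 558, Upf1 at 421 and Exosc7 at 407. Cnot8 had a control SD of 399 around a mean value of 1172 (n = 6), a spread that covers the gap to Upf1 and Exosc7 in this order. The lowest levels belonged to the decapping cofactors Dcp1b (23.9 per kb) and Dcp1a (27.2 per kb) and to Smg1 (30.4 per kb), a kinase of nonsense-mediated decay.

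The exosome held both the largest increase and the largest decrease. Its core is a ring to which Exosc4, Exosc5, Exosc7, Exosc8 and Exosc9 belong, capped by the RNA-binding subunits Exosc1, Exosc2 and Exosc3. Of the 11 measured genes of the complex and its nucleases, 1 rose (Exosc4), 1 fell (Exosc5) and 9 did not pass, whereas after scaling to equal sums 7 were called higher and 0 lower. Of all genes tested, 11.5% were called higher and 11% lower as deposited, and 33.4% and 3.67% under equal sums.

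Exosc4, on chromosome 15 (76327397 to 76330677, + strand), had values of 382, 298, 402, 431, 318 and 286 in control replicates 1 to 6. In knockout replicates 1 to 8 it had 536, 507, 589, 618, 663, 599.5, 668 and 617. Every knockout liver was above every control liver. The control mean was 353 (SD 60.2, n = 6) and the knockout mean 599.8 (SD 56.2, n = 8), so Exosc4 rose by 0.77 on the log2 scale (SE 0.11, adjusted p = 0.000184 by limma). This gene passed in all 28 alternative settings tried. Its log2 change was 0.58 among Y-positive libraries, 1.07 among Xist-high libraries, and 0.75 without knockout replicates 3, 6 and 7.

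Exosc5, on chromosome 7 (25659164 to 25671368, + strand), had control values of 651, 411, 455, 511, 341 and 360.1. Its knockout values were 342, 305, 306, 348, 315, 297, 338 and 297. All 8 knockouts were below the control mean, but knockouts 1 and 4 reached the level of the lowest control, so the ranges overlapped. The knockout livers lay close together, at 318 (SD 21.0, n = 8), against a spread of 455 (SD 114, n = 6) in controls. The gene fell by 0.48 on the log2 scale (SE 0.13, adjusted p = 0.0133 by limma). Within classes the log2 change was -0.62 in Y-positive libraries (limma adjusted p = 0.0234) and -0.17 in Xist-high libraries (limma adjusted p = 0.648), where both controls were low. It did not pass after scaling to equal sums (limma adjusted p = 0.317). Without control replicate 1, the highest control, the Exosc5 change was -0.37 (limma adjusted p = 0.0258), and Cnot3 had the largest decrease (-0.46). Without knockout replicates 3, 6 and 7 Exosc5 was at -0.47, and Xrn2 fell more (-0.52).

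**Figure D2:**
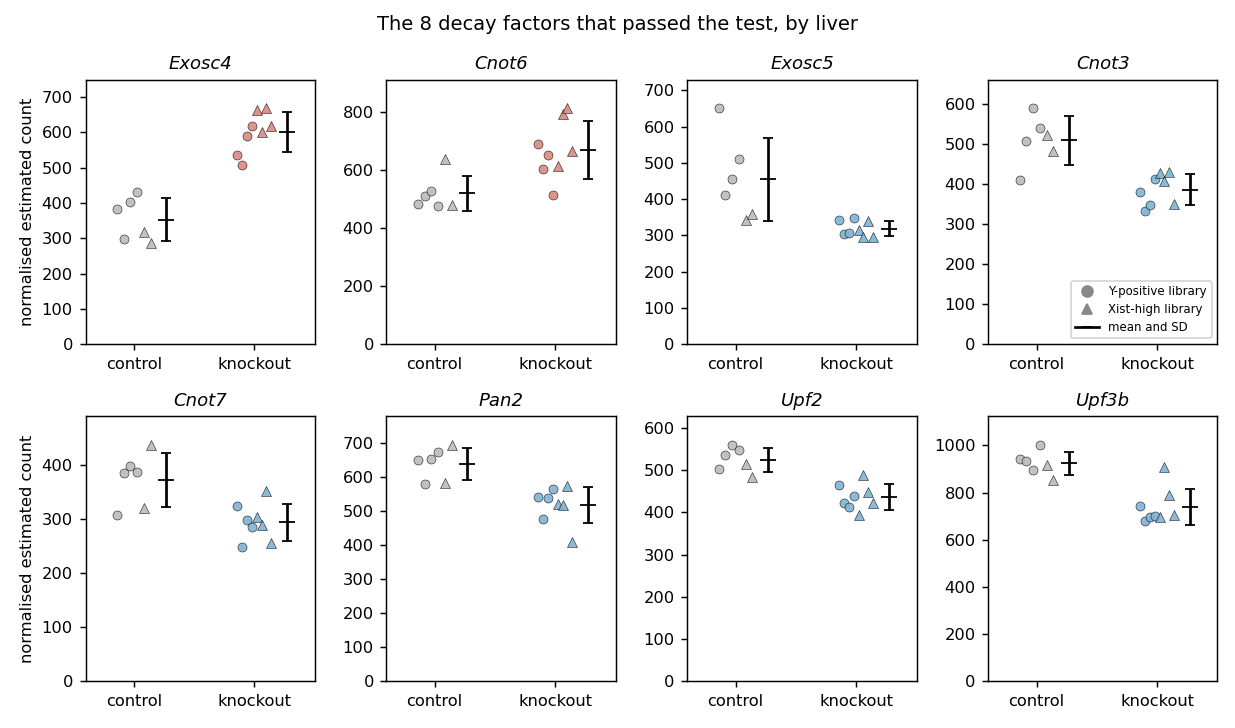
Normalised estimated count in each liver (y axis, from 0) of the 8 decay factors that passed the test as deposited, with mean and SD beside the points. Circles are Y-positive and triangles Xist-high libraries. The knockout livers of Exosc4 (507 to 668) all lie above the controls (286 to 431), and those of Exosc5 (297 to 348) lie within a narrow band at or under the lowest controls.

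Since all libraries are scaled by 1 factor, the balance of subunits within a liver does not depend on the scaling. Exosc4 and Exosc5 were each set against the mean log2 value of the other 6 ring and cap subunits of the same library. This contrast was chosen after the values were seen, and it is given as a description without a test. Exosc4 stood 0.38 above the others in controls (0.14 to 0.63) and 1.07 above them in knockouts (0.65 to 1.25). Exosc5 stood 0.72 above them in controls (0.30 to 1.21) and 0.16 above in knockouts (-0.37 to 0.55). The order of the pair thus reversed in the means, while the 6 other subunits, each set against the remaining 5, shifted by -0.21 (Exosc8) to 0.09 (Exosc9).

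**Figure D3:**
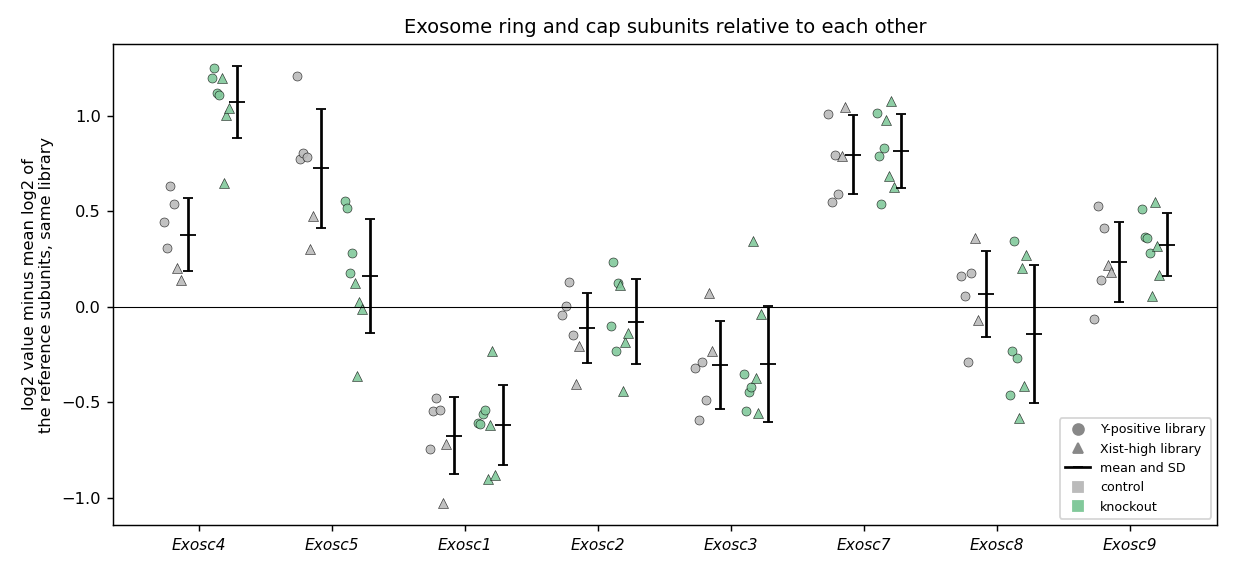
Log2 value of each exosome ring or cap subunit minus the mean log2 value of the reference subunits in the same liver (y axis), with mean and SD. Grey points are 6 controls and green points 8 knockouts, with circles for Y-positive and triangles for Xist-high libraries. Exosc4 moved from a mean of 0.38 to 1.07 and Exosc5 from 0.72 to 0.16.

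None of the remaining exosome genes passed as deposited. The cap subunits Exosc1, Exosc2 and Exosc3 had log2 changes of 0.13, 0.11 and 0.09, and the ring subunits Exosc7, Exosc8 and Exosc9 of 0.10, -0.09 and 0.16. Their ranges overlapped throughout, as for Exosc9, with a range of 270.4 to 377 among controls and 263 to 525 among knockouts. Exosc10, the nuclear 3′ exonuclease, had a log2 change of -0.26 (limma adjusted p = 0.094) with 8 of 8 knockouts below the control mean. The nucleases Dis3, which supplies the catalytic activity of the nuclear complex, and Dis3l, its cytoplasmic relative, had changes of 0.08 and -0.06.

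Deadenylation had 1 called increase and 3 called decreases among 15 factors, and 11 did not pass. Under equal sums the split was 3 higher and 0 lower. The shares of all genes were 11.5% higher and 11% lower as deposited, and 33.4% and 3.67% under equal sums. The CCR4-NOT complex is built on the scaffold Cnot1 and carries 2 kinds of deadenylase, 1 from the Cnot6 and Cnot6l pair and 1 from the Cnot7 and Cnot8 pair.

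Cnot6, on chromosome 11 (49671503 to 49712723, - strand), had control values of 482, 511, 529, 477, 637 and 482. The knockout values were 689, 604, 654, 514, 614, 795, 814 and 665. Knockouts 6 and 7 were highest, and knockouts 2, 4 and 5 lay below the highest control. The log2 change was 0.36 (SE 0.11, adjusted p = 0.0289 by limma), with 7 of 8 knockouts above the control mean, and 0.70 under equal sums (limma adjusted p = 0.00131). In Y-positive libraries alone it was 0.29 and missed the threshold (limma adjusted p = 0.120). Without knockout replicates 3, 6 and 7 it came to 0.25 and missed the threshold (limma adjusted p = 0.123). The call was also lost when control replicate 1, 2, 4 or 6 or knockout replicate 7 alone was left out (limma adjusted p of 0.0504 to 0.0656). With log2 estimated reads as a covariate it was lost too (0.31, limma adjusted p = 0.0720).

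Cnot6l had control values of 294, 359, 372, 282, 412 and 265. In knockouts its values were 350.0, 279, 379, 286, 278, 373, 339.8 and 363. Both groups covered the same range, and the log2 change was 0.01 (SE 0.12, adjusted p = 0.967 by limma).

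Cnot7, on chromosome 8 (40492540 to 40515847, - strand), had control values of 307, 386, 399, 387, 320.4 and 438. The knockout values were 325, 248, 299, 285, 303, 289, 352 and 255. Each knockout lay below the control mean, with controls 1 and 5 within the knockout range. The gene fell by 0.34 on the log2 scale as deposited (SE 0.11, adjusted p = 0.0327 by limma), whereas under equal sums the change was 0.00. The call was lost when control replicate 2, 3, 4 or 6 or knockout replicate 2 or 8 was left out (limma adjusted p of 0.0571 to 0.0777).

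Its relative Cnot8, on chromosome 11 (58104153 to 58118594, + strand), had control values of 779.7, 1284, 1619, 1643, 806 and 899. The knockout values were 2411, 1889.8, 1107, 1184, 1724, 1586, 1570.4 and 1395. The groups overlapped widely, because controls 2, 3 and 4 were above the 2 lowest knockouts. The log2 difference of 0.49 (SE 0.21) missed the threshold (limma adjusted p = 0.108), but passed under equal sums (0.83, limma adjusted p = 0.00382).

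Among the non-catalytic CCR4-NOT subunits, Cnot3 was the lowest relative to controls. It had values of 409 to 589 (median 515) in controls and 332 to 429 (median 393) in knockouts, and only the lowest control was within the knockout range. The gene fell by 0.40 on the log2 scale (SE 0.10, adjusted p = 0.00902 by limma), and under equal sums by 0.06 without passing. The scaffold Cnot1 had log2 -0.29 (limma adjusted p = 0.0565), with values of 1626 to 2219 and 1306 to 1977. Cnot10 and Cnot11, which form a module at one end of the scaffold, had log2 changes of -0.30 and 0.11, Cnot2, the partner of Cnot3, had -0.24, and Cnot4, a ubiquitin ligase associated with the complex, had -0.16. None of these 5 passed.

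Tob1 and Tob2 are antiproliferative proteins that bind the Cnot7 and Cnot8 deadenylases and poly(A)-binding protein. Tob1 had control values of 2586, 2510.0, 2639, 2417, 3475 and 3342. The knockout values were 2637, 2931, 2751, 2559, 4301, 2168, 2366 and 2852. The ranges overlapped nearly completely, and the log2 change was -0.02 (SE 0.14, adjusted p = 0.948 by limma). Tob2 had control values of 844, 646, 545, 563, 845 and 860.4. In the knockouts it had 533, 585, 562, 642, 664, 515, 456 and 546. All 8 knockouts were below the control mean, but controls 2, 3 and 4 were within the knockout range, and the log2 difference of -0.33 missed the threshold (SE 0.13, adjusted p = 0.0759 by limma).

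Pan2, the catalytic subunit of the deadenylase that trims long tails, had values of 579.6 to 695 (median 651) in controls and 410.0 to 574 (median 529.9) in knockouts. The groups did not overlap, by a narrow margin. It fell by 0.31 on the log2 scale as deposited (SE 0.09, adjusted p = 0.0223 by limma), whereas the change was 0.03 under equal sums. Leaving out control replicate 4 or 6 took it just past the threshold (limma adjusted p = 0.0516 and 0.0509). Its cofactor Pan3 had a log2 change of -0.02. Parn, a separate poly(A) ribonuclease, had log2 -0.27 (limma adjusted p = 0.0577), with 7 of 8 knockouts below the control mean.

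Several of these factors come as pairs of related genes, and the ratio within a library is free of the scaling. The log2 ratio was compared between groups for 7 pairs by a two-sided exact permutation test, adjusted over the 7 pairs, and 4 pairs passed.

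The ratio of Cnot7 to Cnot8 fell most. It was -1.59 (SD 0.42, n = 6) in controls and -2.41 (SD 0.37, n = 8) in knockouts, a change of -0.82 (exact permutation p = 0.00333, adjusted 0.00777), and all 8 knockouts were below the control mean. Cnot8 was the more abundant of the pair by value in every liver, and more so in the knockouts. The ratio of Cnot6 to Cnot6l moved from 0.66 (SD 0.14) to 1.01 (SD 0.17), a change of 0.35 (exact permutation p = 0.00233, adjusted 0.00777), and was above the control mean in 8 of 8 knockouts.

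The ratio of Upf3a to Upf3b changed by 0.27, from -0.55 (SD 0.12) to -0.28 (SD 0.14), again above the control mean in 8 of 8 knockouts (exact permutation p = 0.00233, adjusted 0.00777). The ratio of Tob1 to Tob2 changed by 0.31, from 1.99 (SD 0.22) to 2.30 (SD 0.21), with 8 of 8 knockouts above the control mean (exact permutation p = 0.0137, adjusted 0.0239). This last call was lost without control replicate 1 (0.24, exact permutation adjusted p = 0.0612). The ranges of the groups overlapped in all 4 pairs.

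The other 3 ratios did not pass. Dcp1a to Dcp1b changed by -0.40 (exact permutation adjusted p = 0.224). Knockout replicate 4 (1.61) lay far above the other knockouts, and the ratio passed without that library (-0.56, adjusted 0.0228). Control replicate 2 was higher still (1.80), and without it the change was -0.23 (exact permutation adjusted p = 0.480). Dis3 to Dis3l changed by 0.14 (exact permutation adjusted p = 0.472) and Xrn1 to Xrn2 by 0.04 (exact permutation adjusted p = 0.828). Within a single class no ratio passed. Among Xist-high libraries none could, since the smallest possible raw p was 0.0667. Among Y-positive libraries it was 0.0286, and after adjustment over the 7 pairs a pair at that minimum could pass only together with several others. Cnot6 to Cnot6l and Upf3a to Upf3b were at that minimum (exact permutation adjusted p = 0.1 for both), while Cnot7 to Cnot8 and Tob1 to Tob2 had raw exact permutation p values of 0.143 and 0.171. In the Y-positive and the Xist-high class in turn, the ratio of Cnot7 to Cnot8 changed by -0.64 and -1.21, of Cnot6 to Cnot6l by 0.31 and 0.35, of Upf3a to Upf3b by 0.27 and 0.33, and of Tob1 to Tob2 by 0.24 and 0.38. All 4 calls held without knockout replicates 3, 6 and 7. Reads that both members of a pair share are divided by estimation, and the part of this in the ratios was not tested.

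**Figure D4:**
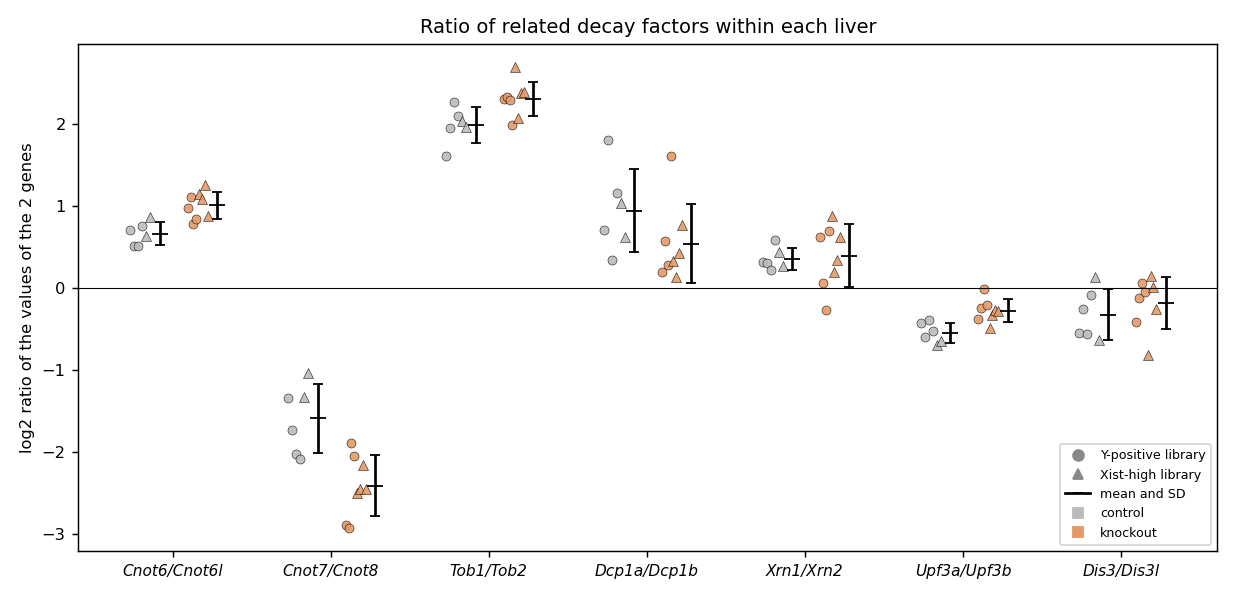
Log2 ratio of the values of 2 related decay factors in each liver (y axis) for 7 pairs, with mean and SD. Grey points are 6 controls and orange points 8 knockouts, with circles for Y-positive and triangles for Xist-high libraries. The ratio of Cnot7 to Cnot8 lies lowest and moved from a mean of -1.59 to -2.41.

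No decapping factor passed as deposited, against 22.4% of all genes called in either direction. Under equal sums 2 of the 6 were called higher (Dcp1b and Dcp2), against 33.4% of all genes. Dcp2, the decapping enzyme, had the smallest p of the group. It had values of 239.7 to 431 (median 312) in controls and 284 to 629 (median 476) in knockouts, with 6 of 8 knockouts above the control mean. The log2 change was 0.51 (SE 0.19, adjusted p = 0.0637 by limma). It passed when control replicate 4 or knockout replicate 5 or 8 was left out (limma adjusted p of 0.0192 to 0.0444), and was 0.28 without knockout replicates 3, 6 and 7 (limma adjusted p = 0.313). Dcp2 also passed with log2 estimated reads or the Xist class as a covariate (limma adjusted p = 0.0194 and 0.0340).

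Its activators Dcp1a and Dcp1b had log2 changes of -0.02 and 0.39. The scaffolds of the decapping complex, Edc3 and Edc4, had changes of -0.18 and -0.31, and each had 8 of 8 knockouts below the control mean. Lsm1, a subunit of the ring that binds shortened tails ahead of decapping, was at 239.7 (SD 61.4) in controls and 237 (SD 33.1) in knockouts, a change of 0.01.

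Neither 5′ exonuclease passed as deposited. Xrn1, which degrades decapped mRNA in the cytoplasm, had values of 349 to 441 (median 398) in controls and 249.6 to 388 (median 338) in knockouts, and all 8 knockouts were below the control mean. Its log2 change was -0.27 (SE 0.12, adjusted p = 0.105 by limma). With log2 estimated reads as a covariate the change was -0.34 and just passed (limma adjusted p = 0.0496). The nuclear Xrn2 had a change of -0.31 (SE 0.14, adjusted p = 0.133 by limma), with a wider spread in knockouts (SD 59.1, n = 8) than in controls (SD 18.5, n = 6). Without knockout replicates 3, 6 and 7 Xrn2 fell by 0.52 and passed (limma adjusted p = 0.00556).

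In nonsense-mediated decay 2 of 7 factors fell as deposited and 5 did not pass, whereas under equal sums 1 was called higher (Smg1) and 0 lower. Of all genes, 11% were called lower as deposited, and 33.4% higher and 3.67% lower under equal sums. Upf2 and Upf3b are adaptors that link the helicase Upf1 to the exon junction complex. Upf3b, on chromosome X (37091678 to 37110322, - strand), had control values of 942, 934, 895, 1003, 917 and 855. The knockout values were 741, 679, 696, 699, 696, 907, 791 and 706. Knockout replicate 6 alone was above the lowest control. The gene fell by 0.33 on the log2 scale as deposited (SE 0.08, adjusted p = 0.0096 by limma), and the change was 0.01 under equal sums.

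Upf3a, the autosomal relative of Upf3b, had control values of 699.5, 619, 683, 696, 565 and 547. The knockout values were 568, 571, 689.7, 606, 497, 720.3, 658 and 581. The ranges overlapped, and the log2 change was -0.06 (SE 0.10, adjusted p = 0.728 by limma). Upf2 had values of 484 to 561 (median 525) in controls and 394 to 489 (median 432) in knockouts, and only 1 knockout was above the lowest control. It fell by 0.26 on the log2 scale as deposited (SE 0.08, adjusted p = 0.0198 by limma), and the change was 0.08 under equal sums.

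The helicase Upf1 had a log2 change of -0.18, the kinase Smg1, which phosphorylates it, 0.31, the phosphatase adaptor Smg5 -0.32 and the endonuclease Smg6 -0.03. Smg5 was nearest to the threshold (limma adjusted p = 0.0558). Of 8 transcripts known as substrates of nonsense-mediated decay or hosts of small nucleolar RNAs, 0 were called in either direction by limma, as deposited, and 2 were called higher under equal sums. The shares of all genes were 22.4% and 33.4%.

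No decay factor was called to differ in its response between Y-positive and Xist-high libraries by a limma interaction term, and 3 of the 41 had an unadjusted p under 0.05. These were Exosc2, Exosc4 and Tob2, and the smallest adjusted p in that limma fit was 0.813. Over all genes 13 were called and 1395 had an unadjusted p under 0.05. Tested in Y-positive libraries alone, 2 factors were higher (Exosc4 and Dcp2) and 4 lower (Cnot3, Edc4, Exosc5 and Upf3b) against 7.39% and 8.3% of all genes (15.7% in either direction). In Xist-high libraries alone, with 2 controls, Exosc4 was the only one called, against 0.73% of all genes called higher and 0.2% lower (0.93% in either direction).

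In the authors' deposited table, 4 of the 41 factors had a q of at most 0.05, namely Exosc4, Exosc5, Cnot3 and Cnot6, against 17.1% of the 27865 genes tested there.

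Among other genes of the pathway, taken from lists, the largest changes exceeded those of the 41 factors. The counts in each list stand beside 11.5% higher and 11% lower of all genes as deposited, and 33.4% and 3.67% under equal sums. Of 15 other deadenylation and poly(A)-binding genes, 5 rose and 3 fell as deposited, and under equal sums 8 rose and 1 fell. Btg2, an antiproliferative relative of Tob1 that activates deadenylation, averaged 149.5 (SD 26.1, n = 6) in controls and 715 (SD 495, n = 8) in knockouts, and rose by 1.98 on the log2 scale (limma adjusted p = 0.00122). The groups did not overlap, at 121 to 178 and 321 to 1500.3, and without knockout replicates 3, 6 and 7 the change was 1.29 (limma adjusted p = 6.36e-05). Noct, a circadian relative of Cnot6, had control values of 649 to 1843 and knockout values of 302 to 725, and fell by 1.53 on the log2 scale (limma adjusted p = 0.000725).

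Of 17 other genes of decapping and 5′ decay, 2 rose and 3 fell as deposited, and under equal sums 4 rose and 0 fell. Pnrc1, a coactivator that can bind the decapping complex, rose by 1.04 on the log2 scale (limma adjusted p = 0.0001), with values of 306 to 445 in controls and 579.8 to 1007 in knockouts. Lsm6, which belongs to the Lsm1 ring, fell by 0.72 as deposited (limma adjusted p = 0.00437) and by 0.38 under equal sums, where it did not pass.

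Of 13 tested exosome cofactors and ribosome rescue factors, 1 rose and 3 fell as deposited, and under equal sums 3 rose and 1 fell. Exosc6, a ring subunit of the same complex, was listed at 0 in every library. Pelo, a factor that rescues stalled ribosomes, had a log2 change of 0.84 (limma adjusted p = 0.00499), and C1d, a partner of Exosc10, fell by 0.61 (limma adjusted p = 0.000856).

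Of 13 other genes of nonsense-mediated decay and the exon junction complex, 1 rose and 2 fell as deposited, and under equal sums 4 rose and 0 fell. Smg8, a regulator of the Smg1 kinase, rose by 0.49 (limma adjusted p = 0.00838). None of 6 tested uridylation and 3′ trimming genes was called by limma as deposited, and 4 were called higher under equal sums.

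Of 22 listed RNA-binding and recruiting factors linked to mRNA decay, stability or translation, 4 rose and 4 fell as deposited. Under equal sums 7 rose, a share near that of all genes, and 0 fell. Zfp36l1, which brings the CCR4-NOT complex to AU-rich elements, rose by 0.84 (limma adjusted p = 0.00914), with values of 522 to 962 in controls and 889 to 2450.1 in knockouts. Rida, which has been described as a bridge between m6A readers and an endonuclease and is also an abundant hepatocyte enzyme, fell by 0.79 (limma adjusted p = 0.0159) and by 0.45 under equal sums, where it did not pass. It also missed the threshold without knockout replicates 3, 6 and 7 (-0.47, limma adjusted p = 0.0599).

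**Figure D5:**
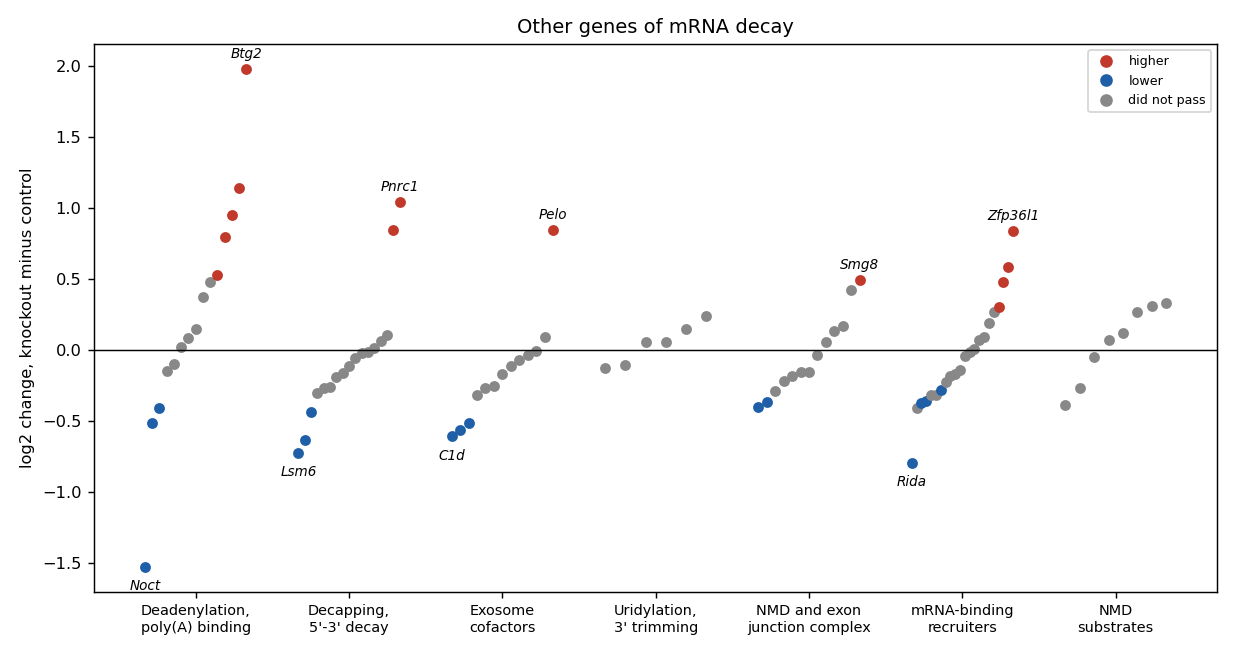
Log2 change (knockout minus control, y axis) of each tested gene in 7 lists of other genes of mRNA decay (x axis), ordered by change within a list. Red and blue points passed at a limma adjusted p of at most 0.05 as deposited and grey points did not. Btg2 (1.98) and Noct (-1.53) lie furthest from 0.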

How the data were processed

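Total RNA of 14 mouse liver samples, 6 control and 8 knockout, was sequenced at a depth of 11.1 to 33.8 M estimated reads per library. Per the labels' protocols, a low-input stranded kit for total RNA was used. The submitters' processing notes name kallisto, sleuth and mm10, with versions and strand setting not given in the sources used here. Without the strand setting, reads of overlapping genes cannot be told apart.

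The authors deposited 1 table, whose signal values are normalised estimated counts per gene and library. This was read from the values. The worth of 1 read was taken as the commonest non-zero value of a library. Of the non-zero values below 200 such reads, 27.9 to 29.8% per library lay within 0.02 of a whole number of reads, and the rest did not. The estimated reads given as depth rest on this unit. The authors also deposited p-values and q-values of a Wald test, a natural log change and mean, and variance terms of that test (given here the unit score). Of these, the q-values were used for the authors' calls and the log change for the direction of those calls. The table had 75859 lines for 54446 genes, because some genes were repeated with the same values, and 1 line per gene was kept.

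Since the values were not raw counts, the design called for a test on a log scale. The 23554 genes that reached 10 in 6 or more libraries were fitted with limma 3.58.1 in R 4.3.3 on log2(value + 1), knockout minus control, with a trended prior variance. P values were adjusted by Benjamini-Hochberg over all genes tested, with a call at 0.05 or below. A fold change on this scale understates the change of low genes. The fit was tested on simulated data. Ratios of related genes were compared by exact permutation of the 14 libraries (3003 arrangements, smallest possible p 0.000333).

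The 41 factors and all gene lists were chosen with earlier results of these data known. Symbols follow the table, so 2 list genes appear under older names, and 1 list gene was dropped because its symbol denotes a different gene in mouse. Each value is given per library for called factors with an absolute log2 change of at least 0.5 as the rule for naming genes has it, and for pairs whose ratio passed. Exosc5, just under that size, was added after its values were seen. In groups with no call the factor with the smallest p is given, and in each other list the called gene with the largest change in each direction. Of the genes this rule names, 1 is not reported here, and the counts of its list include it. The labels do not say whether replicate numbers pair mice. Samples with the same number did not all deviate together (correlations of 0.22 to 0.35, except -0.02 for replicate 3), so the number was not treated as a pairing. The labels do not state that replicates are separate mice, so p-values measure only the spread between these samples, which may be technical. Alternatives were another pseudocount (0.1 or 0.5), no filter, equal sums, quantile normalization, a threshold of 0.01, the authors' q, the Xist class or log2 reads as a covariate, each class alone, knockout replicates 3, 6 and 7 left out, each library left out, and a replicate block. Positions and transcripts came from GENCODE M21 on GRCm38.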

Additional observations from a re-analysis of the deposited data

Results flagged for a closer look

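In 5 of 82 groups of livers (each of the 41 factors in each genotype), the highest or lowest library lay apart from the others by Dixon's criterion, which chance meets in about 1 in 20 groups. Cnot6 was high in control replicate 5 (637), against 477 to 529 in the other controls. Tob1 was high in knockout replicate 5 (4301), against at most 2931 in the other knockouts. Edc4 was high in control replicate 3 (219). Lsm1 was low in knockout replicate 6 (163). Upf1 was high in knockout replicate 5 (2190.0).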

How the results depend on the processing

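Of the 41 factors, 2 were called higher and 6 lower as deposited. Scaling to equal sums gave 13 and 0, a median log2 change of 0.28, and 7870 higher and 864 lower calls over all genes. Cnot7 (0.0027), Pan2 (0.034), Upf2 (0.076) and Upf3b (0.014) then turned to above 0 without passing, and that scaling raises every knockout value relative to controls by construction. Quantile normalization gave 3 factors higher and 8 lower, with 2364 and 2398 calls over all genes. The 6 factors called lower as deposited were called lower there too. Without a filter 1 factor was higher and 5 lower (2211 and 2081 over all genes). At a threshold of 0.01 1 was higher and 2 lower (1311 and 1358 over all genes). By the authors' q 2 were higher and 2 lower (2459 and 2301 over all genes). With the Xist class as a covariate 3 factors were higher and 6 lower (2807 and 2689 over all genes). With log2 reads as a covariate 2 were higher and 7 lower (2494 and 2464 over all genes). In Y-positive libraries 1740 genes were higher. In Xist-high libraries 1 factor was higher and 0 lower (172 and 47 genes), with fewer samples. Without knockout replicates 3, 6 and 7, 1 factor was higher and 9 lower, against 2165 and 2176 of the 23554 genes tested. Leaving out 1 library gave 1 to 4 factors higher, 5 to 9 lower, medians of -0.10 to -0.04, 2189 to 2863 genes higher, 2039 to 2792 lower and 3 to 5 ratios passing. The factors called higher fell to 1 without control replicate 1, 2 or 6 or knockout replicate 7, and rose to 4 without knockout replicate 8. The replicate block, over replicates 1 to 6, called 2 factors higher (Exosc4, and Smg1, which was not called with all libraries and no block) and 2 lower (Cnot3 and Exosc5). Cnot6, Cnot7, Pan2, Upf2 and Upf3b were not called under the block (limma adjusted p = 0.117, 0.0917, 0.0712, 0.115 and 0.0662). The same libraries without the block, an alternative added after seeing the data, gave 2 higher (Exosc4 and Dcp2) and 7 lower, and of those 5 genes only Cnot6 was not called. Over all genes the block gave 2031 higher and 1928 lower calls, and the same libraries without it 2184 and 2143. Of 6 same-numbered pairs, 1 correlated best with its own number. Of the 4 ratios that passed, 0 passed within either class or in the paired replicate block, where the smallest possible p was 0.0286, 0.0667 and 0.0312. After adjustment over the 7 pairs, 0.0667 could not pass, and 0.0286 or 0.0312 could only where several pairs were that low together. Except where a construction is named, the cause of these differences was not tested. Exosc4 was called in every setting.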
